A study of Mus musculus with 4 samples.

Results

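The genes described are 10 markers and regulators of the epithelial-mesenchymal transition, read on every probe set annotated to exactly 1 of their symbols: 19 of the 45037 non-control probe sets of the array. The epithelial genes Cdh1, Epcam and Esrp1 had 4 probe sets, and the mesenchymal genes Cdh2, Vim, Snai1, Snai2, Twist1, Zeb1 and Zeb2 had 15. Cdh1, Esrp1, Snai1, Snai2 and Twist1 had 1 probe set each, Epcam and Cdh2 had 2, Vim and Zeb1 had 3, and Zeb2 had 4. RNA came from whole inguinal mammary gland at postnatal day 10 of mice homozygous for a global Mt2-mmp knockout, Mt2-mmp(-/-), and of wild-type littermates, Mt2-mmp(+/+). All were congenic on C57Bl/6J, and each genotype had 2 arrays. Mt2-mmp is the metalloproteinase gene Mmp15, for which no probe set was named, and the genotypes are therefore taken from the labels alone. The labels give neither the sex of the mice nor whether an array holds 1 animal or a pool, so p-values measure only the spread between these arrays.

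Epithelial cells hold together through E-cadherin, the product of Cdh1, and carry the surface adhesion molecule EpCAM. Esrp1 encodes an RNA-binding protein that keeps splicing of many transcripts in the epithelial form. In an epithelial-mesenchymal transition the zinc-finger repressors of the Snai and Zeb families and the basic helix-loop-helix factor Twist1 lower such genes, while N-cadherin (Cdh2) and the intermediate filament vimentin (Vim) appear. In an intact gland the same genes also mark separate cells: E-cadherin lies in the ductal tree, whereas vimentin, Zeb1, Zeb2 and Twist1 are made mainly by stromal cells of the fat pad, such as fibroblasts, vessel cells and leukocytes. Fewer cells of a type and less RNA per cell therefore cannot be told apart in these samples.

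Snai and Zeb proteins bind the E-box CAGGTG, which reads CACCTG on the opposite strand. RefSeq promoters (GRCm38.p6, 250 bases before to 50 after the gene start) were matched for 5 members, namely Epcam, Snai1, Twist1, Vim and Zeb2, and those of the other members were not analysed here. The Epcam promoter at chr17:87635729-87636028, plus strand, is shown because Epcam is the epithelial member whose brighter probe set separated the genotypes, and the capitals mark its 2 E-boxes.
Epcam: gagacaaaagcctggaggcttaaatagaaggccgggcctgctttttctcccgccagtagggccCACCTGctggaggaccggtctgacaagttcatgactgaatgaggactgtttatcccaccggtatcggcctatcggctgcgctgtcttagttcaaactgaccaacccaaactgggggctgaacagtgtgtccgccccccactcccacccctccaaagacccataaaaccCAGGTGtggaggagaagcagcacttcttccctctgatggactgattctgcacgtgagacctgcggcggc
The boxes began at -187 and -19 from the gene start. Snai1 held 1 such box, at -126, and the letters were not in the windows of Twist1, Vim or Zeb2. Of all 32851 promoters of this length 20.2% held the word on either strand, and 2.88% held it at least 2 times. A match is a description of these letters and not a binding site.

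The arrays were alike as a whole, with Pearson correlations of 0.995 to 0.997 across probe sets, and every value given is a log2 RMA value from the deposited table. Mean log2 levels over 11 luminal markers were 7.14 to 7.40 in the samples, against medians of 3.26 to 3.28 for 23 nonspecific control probe sets. The highest single control value was 6.96, and the dimmest luminal marker averaged 3.90. The mean of 18 measured epidermal and hair follicle markers, called skin markers below, differed between samples far more. It was 6.99 in knockout 1 and 4.25 in knockout 2, against 4.28 in wild type 1 and 6.86 in wild type 2. On this mean the arrays thus stood apart in pairs that cross genotype. The epidermal genes Krt1, Lor and Flg took no part, at 3.19 to 3.98 on every array. The gap thus lay in other genes of the list. Ivl, also epidermal and dim, followed the crossed order. It read 4.52 in knockout 1 and 3.75 in knockout 2, against 3.59 in wild type 1 and 4.27 in wild type 2.

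Epcam was lower and Cdh2 was higher in knockout glands, without overlap between genotypes on their brighter probe sets, Vim and the 2 brighter Zeb2 probe sets were nearly level, and none of the 19 probe sets passed the threshold of an adjusted p under 0.05. Across the array the limma fit called 2 probe sets, of Gadd45gip1 and Prdx2, which is 0.00444% of those tested. At an unadjusted p under 0.05 it gave 2 of the 19 member probe sets (10.5%), against 6.65% of all probe sets. Values of the genotypes did not overlap in 9 of 19, 4 higher and 5 lower in knockouts, against 36.4% of all probe sets. The lowest adjusted p among members was 0.697, and the median 95% interval of a member's log2 fold change reached 0.221 on either side.

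**Figure D1:**
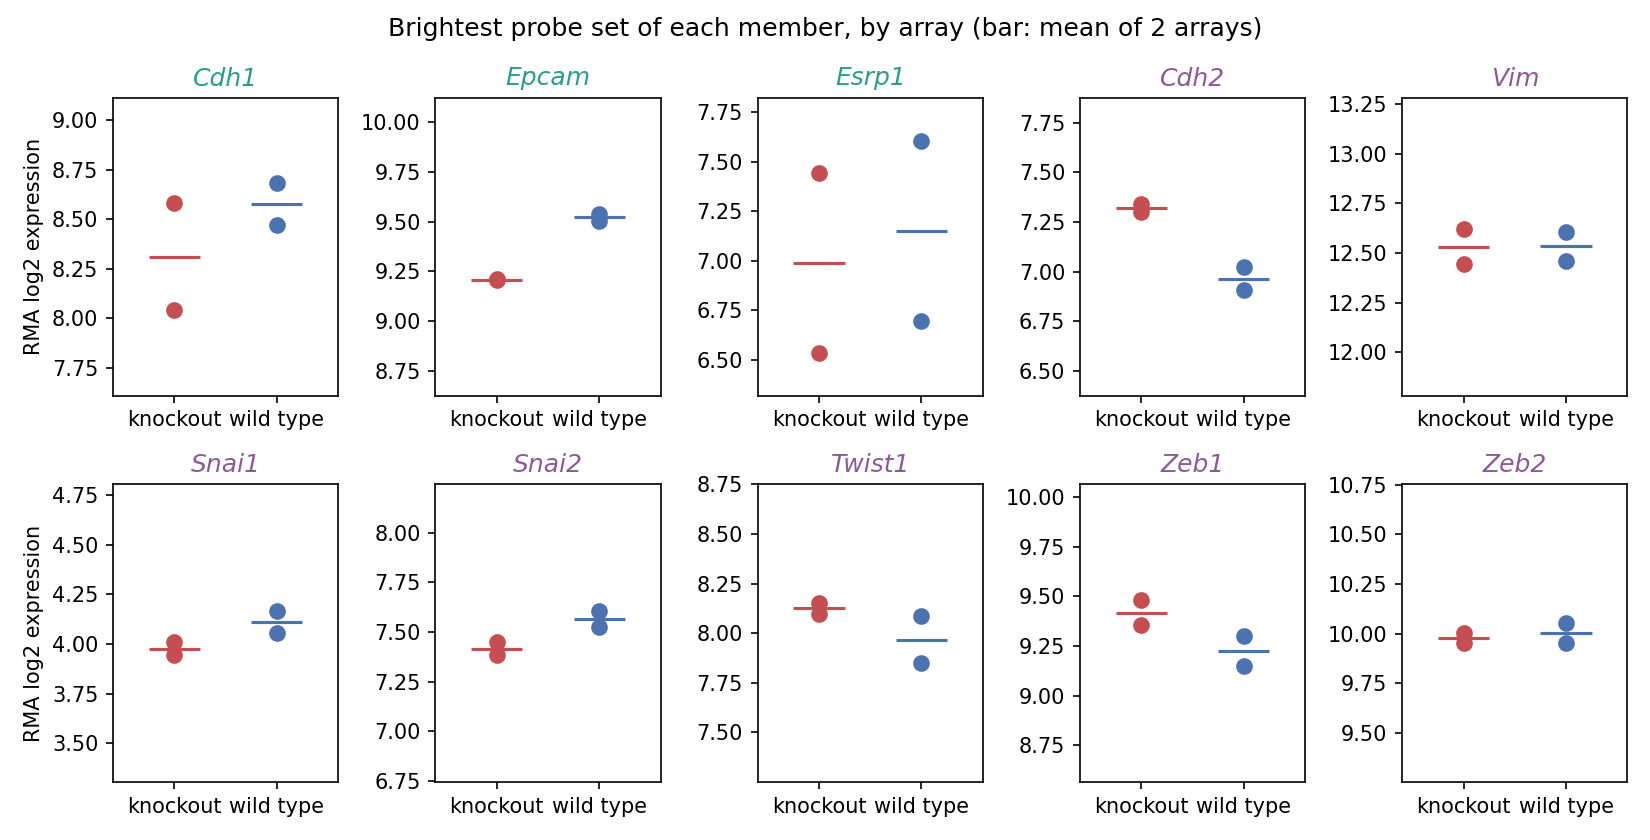
RMA log2 expression of the brightest probe set of each member on each array, knockout left of wild type; bars are means of 2 arrays, and every panel spans the same height of 1.5 log2 units. Epcam (knockout 9.21 and 9.21, wild type 9.54 and 9.50) and Cdh2 (knockout 7.30 and 7.34, wild type 7.02 and 6.91) separate by genotype, while the values of Esrp1 are spread as widely within each genotype as between them.

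Among the epithelial genes, Epcam had log2 values of 9.21 and 9.21 in knockout arrays 1 and 2, against 9.54 and 9.50 in wild-type arrays 1 and 2, on its brighter probe set. Both knockout arrays lay below both wild-type arrays, by 0.295. The log2 fold change was -0.31 (SE 0.066, 95% interval -0.48 to -0.15), and it missed the threshold (limma unadjusted p = 0.00416, adjusted p = 0.697). The dimmer Epcam probe set, of a type that Affymetrix marks as open to cross-hybridization, read 7.80 and 7.86 in knockouts against 7.95 and 7.81 in wild type. Its ranges overlapped, with a log2 fold change of -0.05 (SE 0.081). The 2 probe sets of this gene therefore differ in size, and over their mean the log2 fold change was -0.18.

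Of 11 measured luminal markers 9 were below 0, with a median log2 fold change of -0.17 against -0.0012 over all probe sets. Their mean log2 level was 7.14 to 7.30 in knockouts and 7.39 to 7.40 in wild type, and none passed the threshold. The part of the amount of luminal epithelium in the Epcam value was not tested.

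Cdh1, the adherens-junction cadherin of epithelia, had log2 values of 8.58 and 8.04 in knockout arrays 1 and 2, against 8.47 and 8.68 in wild-type arrays 1 and 2. Knockout 2 alone was low, and the ranges overlapped. The log2 fold change was -0.26 (SE 0.188, limma adjusted p = 0.834), and without knockout 2 it was 0.0055. Without knockout 1 it was -0.54. Cdh1 is the only member on chromosome 8, which also carries Mmp15, and it lies 84 measured genes from it in the order of the GRCm38.p6 annotation. Any effect of linkage to the targeted allele was not tested.

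Esrp1 had log2 values of 7.44 and 6.54 in knockout arrays 1 and 2, against 6.70 and 7.60 in wild-type arrays 1 and 2. Knockout 1 and wild type 2 were high, knockout 2 and wild type 1 low, and the gap within each genotype (0.906 and 0.907) exceeded the difference between genotypes. The log2 fold change was -0.16 (SE 0.394, 95% interval -1.15 to 0.83, limma adjusted p = 0.981). With the arrays that stood alike across genotypes as pairs in a block, a fit added after the data were seen, the same log2 fold change had an SE of 0.074 (limma adjusted p = 0.876). Esrp1 itself stood alike within these pairs, so the smaller SE followed from the choice of block. Its sign followed single arrays: it was 0.29 without knockout 2 or without wild type 2, and -0.61 without knockout 1 or without wild type 1.

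The same pairs of arrays were high and low on the mean of the skin markers. Esrp2, the paralogous splicing regulator, had 6.40 and 5.81 in knockout arrays 1 and 2, against 5.69 and 6.25 in wild-type arrays 1 and 2, a log2 difference of 0.13 (SE 0.257). Without knockout 1 the Esrp2 value was -0.17, and without wild type 1 it was -0.15. Of the 18 epidermal and hair follicle markers 0 separated the genotypes, against 37.6% of all genes on their brightest probe sets. The part of skin RNA in the Esrp1, Esrp2 and Cdh1 values was not tested. Epcam on its brighter probe set did not share this order, with 0.0017 between the knockout arrays and 0.034 between the wild-type arrays.

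**Figure D2:**
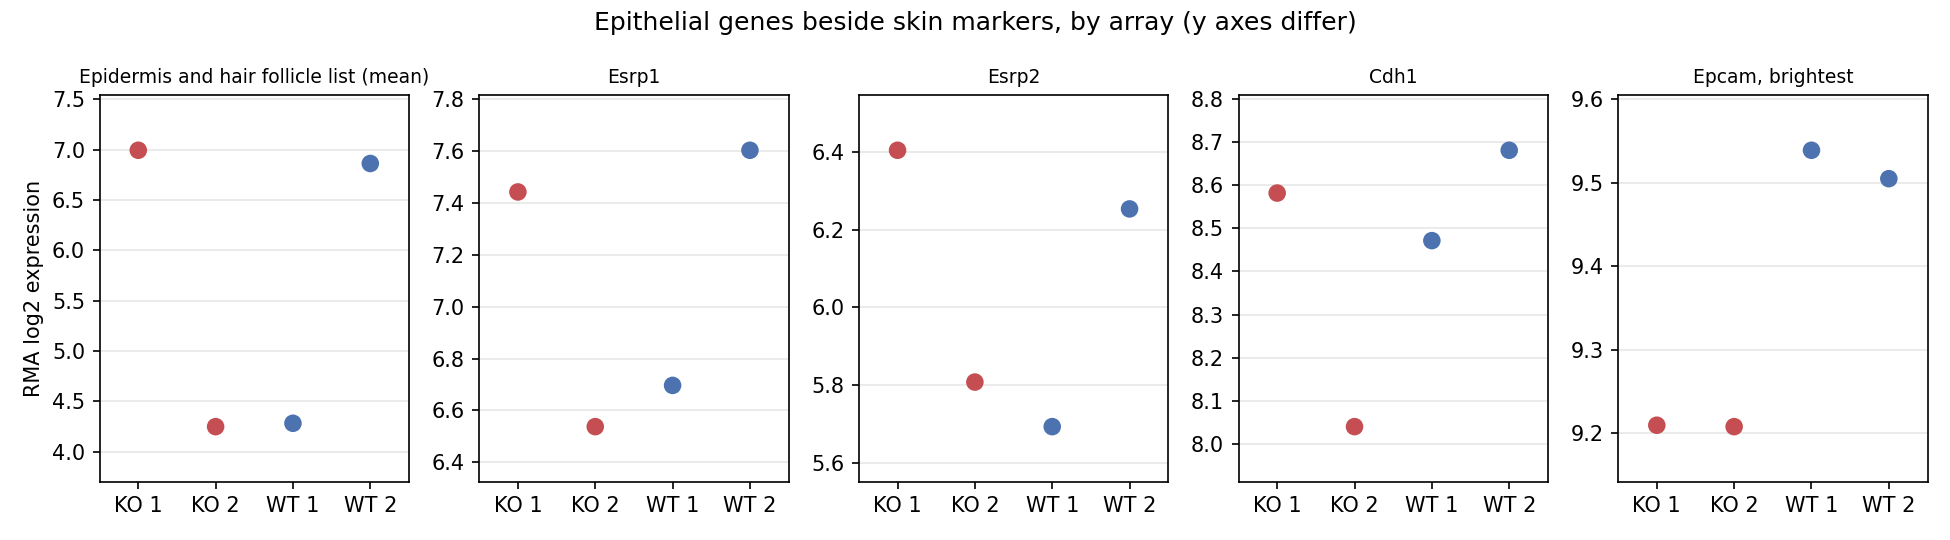
RMA log2 values by array for the mean of 18 epidermal and hair follicle markers and for Esrp1, Esrp2, Cdh1 and the brighter Epcam probe set; knockout arrays (KO) are left of wild-type arrays (WT), and each panel has its own axis. Esrp1 and Esrp2 are high in knockout 1 and wild type 2 like the skin markers, Cdh1 is low in knockout 2, and Epcam divides by genotype.

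Among the mesenchymal genes, Cdh2 had the highest log2 fold change. Its brighter probe set read 7.30 and 7.34 in knockout arrays 1 and 2, against 7.02 and 6.91 in wild-type arrays 1 and 2. Every knockout array lay above every wild-type array, by 0.280. The log2 fold change was 0.36 (SE 0.075, 95% interval 0.17 to 0.54), a ratio of 1.28, and it missed the threshold (limma unadjusted p = 0.00404, adjusted p = 0.697). The dimmer probe set, which the platform ties to the same transcript record, had 6.27 and 6.22 in knockouts against 6.12 and 5.98 in wild type. It separated the genotypes in the same direction, by 0.19 on the log2 scale (SE 0.079, limma adjusted p = 0.749). With 1 array left out, the brighter probe set kept values of 0.30 to 0.41 and the dimmer one 0.13 to 0.26, the lower end of each without wild type 2.

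Mean levels of marker lists of several other cell types of the fat pad were also higher in both knockout arrays than in both wild-type arrays. All 6 brown and beige adipocyte markers were above 0, with mean log2 levels of 8.62 to 9.10 in knockouts against 7.98 to 8.03 in wild type. Of 8 endothelial markers 7 were above 0 (9.05 to 9.25 in knockouts, 8.93 to 9.0 in wild type). Both measured Schwann cell markers together averaged 7.44 to 7.57 in knockouts and 7.19 to 7.34 in wild type, although 1 was below 0. S100b alone carried this gap, with a log2 fold change of 0.49, while Sox10 was level, at -0.012 with overlapping ranges. The 3 B-cell markers averaged 5.18 to 5.28 in knockouts and 4.66 to 4.96 in wild type. All were above 0, but Cd79a was level, at 0.0062 with overlapping ranges. The 4 measured white adipocyte markers averaged 11.37 to 11.40 in knockouts and 10.63 to 11.09 in wild type, with a median log2 fold change of -0.0096. That gap lay in the leptin gene Lep, with 8.15 and 8.16 in knockouts against 6.72 and 5.20 in wild type, while Fabp4, Adipoq and Pparg had log2 fold changes of -0.10 to 0.016. None of these markers passed the threshold, and the part of these cells in the Cdh2 value was not tested.

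Vim, the filament protein of fibroblasts, endothelium and leukocytes, was bright and level. Its brightest probe set had 12.44 and 12.62 in knockout arrays 1 and 2, against 12.60 and 12.46 in wild-type arrays 1 and 2. The ranges overlapped on all 3 Vim probe sets, whose log2 fold changes ran from -0.011 to 0.0015. The 95% interval of the brightest was -0.24 to 0.24. The brightest Vim probe set, like the dimmer one of Epcam, is of the type marked as open to cross-hybridization.

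The Snai factors lay slightly lower in knockouts. Snai2 (Slug), which in the mouse gland is known from basal cells as well as stroma, had 7.38 and 7.45 in knockout arrays 1 and 2, against 7.61 and 7.53 in wild-type arrays 1 and 2. The ranges were apart by 0.078, and the log2 fold change was -0.15 (SE 0.073, limma adjusted p = 0.777). Snai1 (Snail) was dim, with 4.01 and 3.94 in knockouts against 4.17 and 4.06 in wild type, less than 1 log2 unit above the medians of the nonspecific controls. Its log2 fold change was -0.14 (SE 0.077, adjusted p = 0.798), on a scale that compresses differences of dim probe sets. Of 11 measured basal and myoepithelial markers 11 were below 0. Values of the genotypes did not overlap in 5 (45.5%, against 37.6% of all genes), all lower in knockouts. A limma unadjusted p under 0.05 was reached by 3 (27.3%, against 7.36% of all genes), and none passed the threshold. They were Oxtr (-0.36), Krt14 (-0.27) and Lama3 (-0.22), whose dimmer probe sets had -0.076, -0.14 and -0.00043. The list holds genes that skin also makes. Its mean levels were 7.91 in knockout 1 and 7.29 in knockout 2, against 7.59 in wild type 1 and 8.07 in wild type 2. These means overlapped between genotypes and were highest in knockout 1 and wild type 2, as for the skin markers. Snai2 itself was not highest in those arrays, and the part of basal cells or skin in its value was not tested.

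Twist1 and Zeb1 leaned the other way. Twist1, a factor of embryonic mesenchyme, had 8.15 and 8.10 in knockout arrays 1 and 2, against 8.09 and 7.85 in wild-type arrays 1 and 2. The ranges were apart by only 0.010, and the log2 fold change was 0.16 (SE 0.099, limma adjusted p = 0.817). Without wild type 2 it was 0.039. Zeb1, a repressor of Cdh1, had 9.36 and 9.48 in knockouts against 9.30 and 9.15 in wild type on its brightest probe set, which separated the genotypes by 0.056. The log2 fold change was 0.19 (SE 0.088, adjusted p = 0.773), with 0.12 without wild type 2. The other Zeb1 probe sets had 0.09 and 0.07, with overlapping ranges. Of 8 fibroblast markers 6 were above 0, and their mean levels overlapped, at 10.15 to 10.26 in knockouts and 10.05 to 10.20 in wild type.

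Zeb2, the paralogue of Zeb1 that macrophages also make, was nearly level on its brighter probe sets. The brightest had 9.95 and 10.00 in knockout arrays 1 and 2, against 10.05 and 9.96 in wild-type arrays 1 and 2, and the log2 fold changes of the 2 brighter probe sets were -0.025 and -0.023. The 2 dimmer probe sets had -0.13 and -0.15, with knockout values below wild-type values by 0.019 and 0.029. All 8 macrophage markers were below 0 as well, with mean levels of 8.61 to 8.75 in knockouts and 8.81 to 8.86 in wild type, and their part in the Zeb2 values was not tested.

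**Figure D3:**
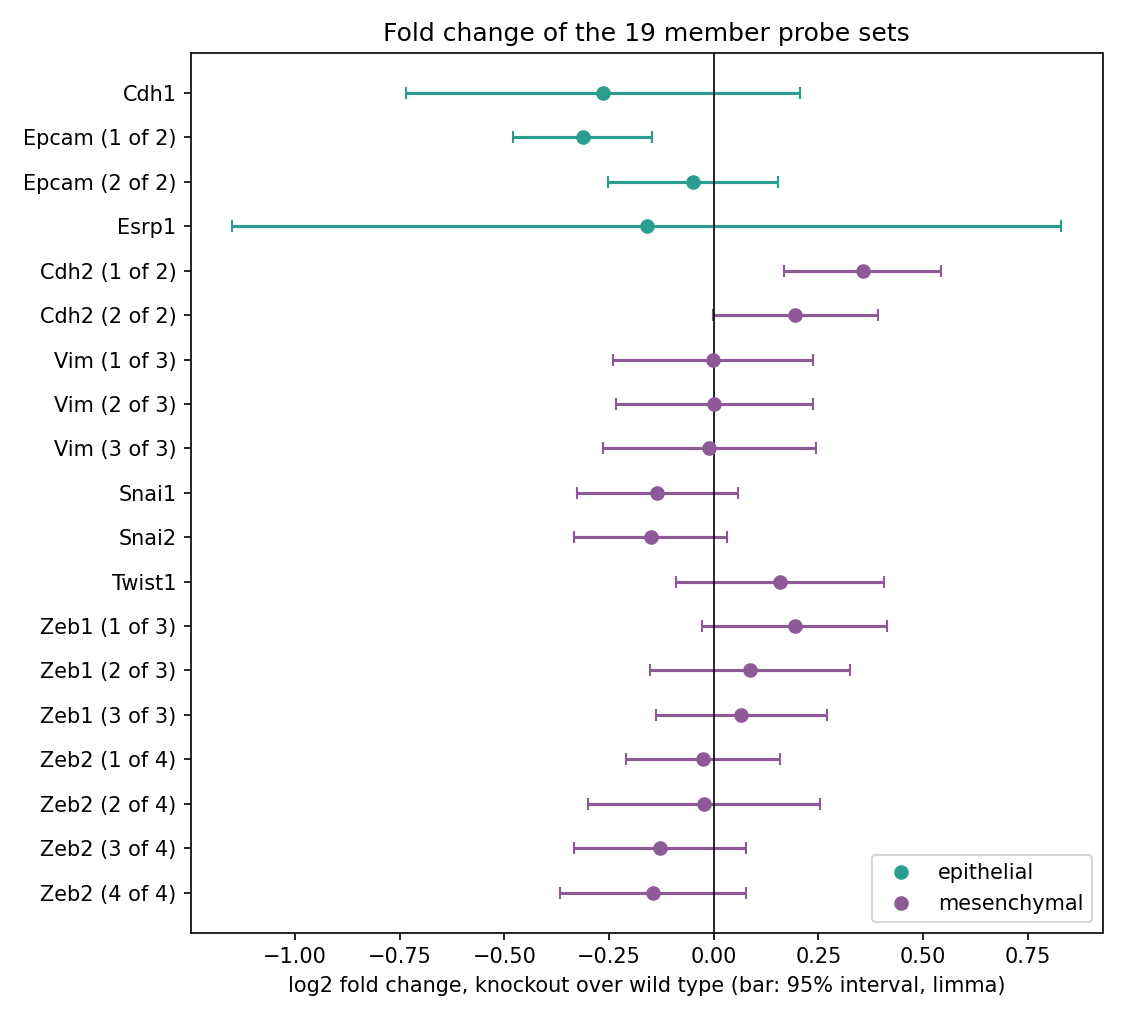
Log2 fold change, knockout over wild type, of the 19 member probe sets with 95% intervals from limma; probe sets of a gene run from brightest to dimmest. The 4 epithelial probe sets lie between -0.31 and -0.05, the 15 mesenchymal ones between -0.15 and 0.36, and intervals of the brighter Epcam and Cdh2 probe sets do not reach 0.

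Set against each other, the epithelial probe sets had a median log2 fold change of -0.21 (0 of 4 above 0) and the mesenchymal probe sets one of -0.0020 (7 of 15 above 0), beside -0.0012 over all probe sets, of which 50.7% were below 0. The difference between the medians, -0.21, was 0.012 without knockout 2, -0.067 without wild type 2, -0.39 without wild type 1 and -0.51 without knockout 1. Within an array, the mean deviation of the 3 epithelial genes from their 4-array means was 0.118 in knockout 1 and -0.364 in knockout 2, against -0.057 in wild type 1 and 0.303 in wild type 2. For the 7 mesenchymal genes it was 0.0045 and 0.052 in knockouts, against 0.038 and -0.095 in wild type. Both sets overlapped between genotypes, and the epithelial set was spread more widely than the mesenchymal set within each genotype.

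Other genes of the 2 programmes were counted on the brightest probe set of each, and over all genes counted so 7.36% had an unadjusted p under 0.05. Of 29 measured genes of the epithelial programme 22 were below 0 (median log2 fold change -0.10), 2 had an unadjusted p under 0.05 (6.90%) and 0 passed the threshold. Their mean log2 levels overlapped, at 6.38 in knockout 1 and 6.15 in knockout 2, against 6.25 in wild type 1 and 6.46 in wild type 2, again highest in knockout 1 and wild type 2 like the skin markers, whose part was not tested. The 2 genes were Krt8, a luminal keratin (-0.33, SE 0.091), and the claudin Cldn3 (-0.24, SE 0.066), both of which also stand in the luminal list. The Cldn3 value is from a probe set of the type marked as open to cross-hybridization, and its dimmer probe set had -0.090. Krt18, the partner of Krt8, had -0.20 and the junction scaffold Tjp3 -0.24. Tjp3 was dim, at 4.61 and 4.65 in knockouts against 4.72 and 5.02 in wild type, and had -0.087 without wild type 2. Grhl2 and Ovol2, transcription factors that hold the epithelial state, had -0.12 (SE 0.080) and 0.12 (SE 0.109). Ovol2 was dim, with overlapping values of 4.38 and 4.14 in knockouts against 4.22 and 4.06 in wild type. Without knockout 1 the Ovol2 value was 0.00064.

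The mesenchymal programme had 17 of 23 genes above 0 (median 0.053), 1 at an unadjusted p under 0.05 (4.35%, against 7.36% of all genes) and 0 past the threshold. Their mean log2 levels overlapped, at 8.95 and 8.99 in knockout arrays 1 and 2, against 8.95 and 8.85 in wild-type arrays 1 and 2, with wild type 2 lowest. The single one was Itga5, the fibronectin receptor subunit, dim at 4.41 and 4.33 in knockouts against 4.20 and 3.85 in wild type (0.34, SE 0.127). Thy1 and Fap, surface proteins of fibroblasts, had 0.35 and 0.25, with wild type 2 lowest for both, and without wild type 2 they had 0.15 and 0.11. Twist2, Fn1 and Prrx1 had -0.02, 0.03 and -0.03, smaller than their standard errors of 0.098, 0.074 and 0.081. Prrx1 had 5 probe sets, which ran from -0.11 to 0.38.

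Other cadherins and catenins showed no common direction, with 11 of 23 above 0 and a median of -0.0091. In this list 4 genes had an unadjusted p under 0.05 (17.4%, against 7.36% of all genes) and 0 passed the threshold. Nectin2, an adhesion molecule of adherens junctions, had 7.27 and 7.13 in knockout arrays 1 and 2, against 6.76 and 6.91 in wild-type arrays 1 and 2 (log2 fold change 0.36, SE 0.089, limma adjusted p = 0.705). Afdn, which links nectins to actin, had 0.21, although its dimmer probe set had -0.01. Cdh11, the cadherin of fibroblasts, had 8.82 and 8.88 in knockouts against 9.16 and 8.99 in wild type (-0.22, SE 0.085), opposite in sign to Cdh2, and the dim Cdh22 had -0.23. P-cadherin (Cdh3), found in myoepithelium, had -0.16 (SE 0.097) on its brighter probe set and 0.0037 on the dimmer one. VE-cadherin (Cdh5), found in endothelium, had 0.11. The catenins that bind cadherin tails were nearly level, with 0.044 for Ctnnb1 (SE 0.067) and 0.054 for Ctnnd1 (SE 0.080).

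Growth factors and mediators of the TGF-beta pathway, which can induce the transition, had 5 of 16 genes above 0, a median of -0.032, 0 genes at an unadjusted p under 0.05 (against 7.36% of all genes) and 0 past the threshold. Tgfb1, the ligand, had 0.21 (SE 0.091), the co-repressor Ski -0.13, the signal transducer Smad2 -0.12 and Id1, a target of the related BMP signals, -0.13. The dimmer Ski probe set lay on the other side of 0, at 0.059.

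**Figure D4:**
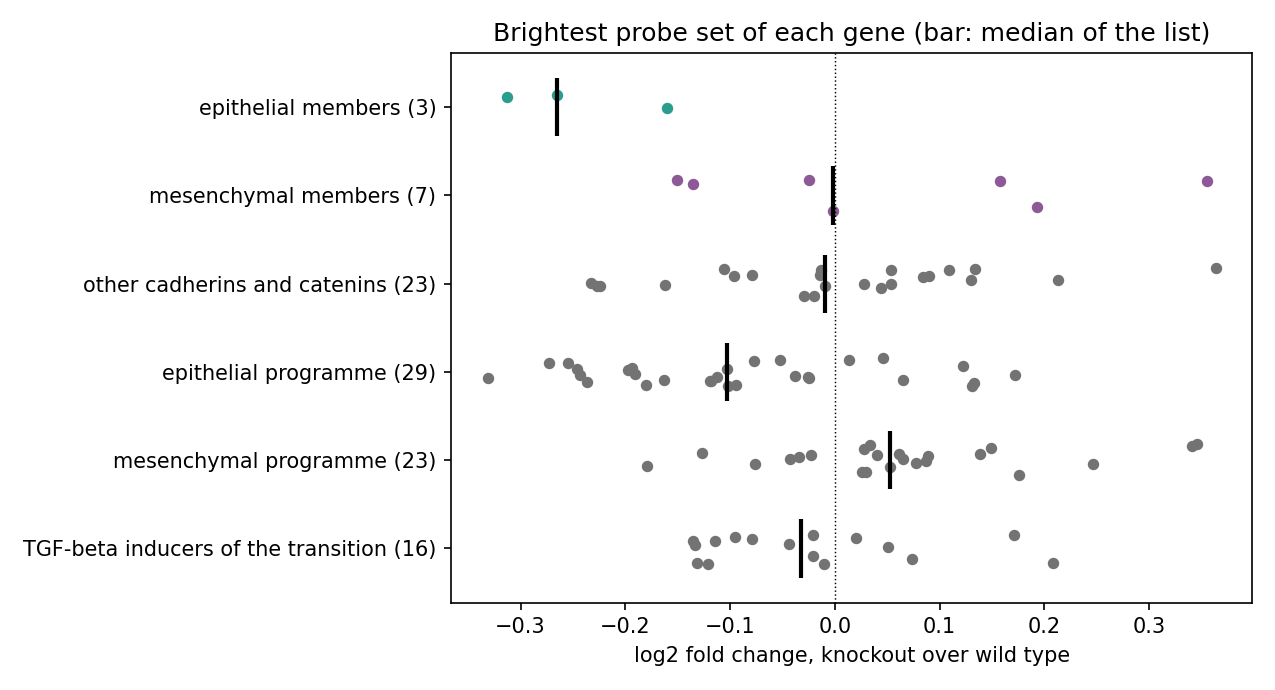
Log2 fold change, knockout over wild type, of each gene's brightest probe set in the 2 member sets and 4 lists, with the number of genes in brackets; points are genes and the bar is the list's median. The medians are -0.26 for the epithelial members and -0.10 for the epithelial programme, against -0.0020 for the mesenchymal members and 0.053 for the mesenchymal programme, and genes of each list apart from the epithelial members lie on both sides of 0.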

How the data were processed

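Labelling with biotin started from 200 ng of total RNA per array, per the labels' protocols. The authors deposited 1 log2 value per probe set and array, computed by RMA in the affy package according to the submitters' processing notes, with version and options not given in the sources used here. Such values lack shifts shared by most genes and compress differences of dim probe sets. Probe sets were named from the platform annotation, and the 10 member symbols matched RefSeq (GRCm38.p6) by gene ID. Knockout was compared with wild type in limma 3.58.1 (R 4.3.3; lmFit, eBayes), two-sided, over 45037 probe sets without the 104 controls, with Benjamini-Hochberg adjustment and no covariate. The number of arrays limits precision: the median standard error was 0.081, and exact permutation of 2 against 2 arrays reaches no p below 0.333. Lists were counted over the brightest probe set of each gene. From each list the text names up to 4 genes of smallest p, besides Cdh3, Cdh5, Cdh11, Ctnnb1, Ctnnd1, Esrp2, Grhl2, Ovol2, Twist2, Fn1 and Prrx1. Members and lists were chosen with earlier results of these data known. The fit was tested on simulated data with changes larger than that of any member probe set, so smaller changes were not tried.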

Additional observations from a re-analysis of the deposited data

How the results depend on the processing

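No member probe set passed the threshold under any of the 13 alternatives, and the brighter Epcam and Cdh2 probe sets kept their directions wherever they were fitted. Where probe sets were averaged by gene, Epcam had -0.18 and Cdh2 0.28. Over all probe sets 5 passed with quantile normalization, median centring, the brighter probe sets only, an intensity trend or robust variances, against 2 in the fit reported. With 1 probe set a gene 1 passed, with probe sets averaged by gene 0, and with 1 array left out 0 to 5. With the replicate number as a block 0 passed and the lowest adjusted p of a member was 0.714. Deviations of same-numbered arrays correlated at -0.295, so a crossed pairing was added after the data were seen, with which 0 passed and 2 members had an unadjusted p under 0.05. With 1 array left out that member count was 2 to 4, the epithelial median -0.42 to -0.038, the mesenchymal median -0.073 to 0.082 and their difference -0.51 to 0.012. In those fits the lone array of a genotype is assumed to have the spread of the other genotype.

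The signs of some values turned. With quantile normalization Vim had 0.035 and 0.0064 on its brightest and dimmest probe sets, with median centring -0.0044 on the other, and Prrx1 had 0.026 with the mean of its probe sets. With 1 array left out the ranges were -0.54 to 0.0055 for Cdh1, -0.12 to 0.023 for the dimmer Epcam probe set, -0.61 to 0.29 for Esrp1 and -0.17 to 0.43 for Esrp2. From brightest to dimmest, Vim ran from -0.090 to 0.086, -0.079 to 0.082 and -0.13 to 0.11. The brighter Zeb2 probe sets ran from -0.073 to 0.024 and from -0.15 to 0.10. Ctnnd1 ran from -0.0064 to 0.11, Fn1 from -0.016 to 0.075, Prrx1 from -0.10 to 0.034 and Twist2 from -0.14 to 0.094. The cause was not tested.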
